A study of Mus musculus with 6 samples.

Results

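The centrosome is the microtubule-organising centre of animal cells, and the genes described here are 36 genes that build, cap, decorate or surround its core, the centriole. They form a list of named centriole and centrosome genes with no threshold on a measured value, drawn up with earlier results of these data known; all 36 have a probe among the 20145 named genes on the array. The 6 samples are primary mammary epithelial cells, obtained by dissociating mammary glands of female mice at 8 weeks of age of the strain 129sv/C57Bl6. In 3 samples the genotype is wild type and in 3 it is Plk2 -/-, called Plk2 null below, with no other allele or agent given in the labels. Labels do not say whether a sample is 1 mouse or a pool, so the p-values measure the spread between these samples, which may be technical. The labels do not say how the null allele was made.

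As background, a new centriole grows once per cell cycle beside each existing one. The kinase PLK4, placed there by the scaffolds CEP192 and CEP152, recruits STIL and SAS-6, which form the cartwheel on which centriolar microtubules are then extended by CPAP, the product of Cenpj. The older centriole carries appendages that anchor microtubules and, in resting cells, the primary cilium, while a shell of pericentrin and CDK5RAP2 holds the gamma-tubulin rings that nucleate microtubules. PLK2 is itself a centrosomal polo-like kinase that acts in centriole duplication, and CPAP is one of its known substrates.

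To show the regulatory sequence in front of the members with the smallest p-values, the promoters of Cep290, Cep78, Cep70, Ccp110 and Sass6 are printed from RefSeq (GRCm38.p6), each running from 250 bases before to 50 bases after the start of the gene, 5′ to 3′ on the transcribed strand. Capitals mark letters of motifs associated with cell-cycle promoters, searched on both strands: the E2F motif written as TTGGCGC, with the variants written as TTCCCGC, written as TTGCCGC and written as TTCGCGC; the CHR motif written as TTTGAA or written as TTCGAA; and the CCAAT box. None of these motifs overlaps another in the printed stretches.
Cep290, chr10:100487332-100487631, plus strand: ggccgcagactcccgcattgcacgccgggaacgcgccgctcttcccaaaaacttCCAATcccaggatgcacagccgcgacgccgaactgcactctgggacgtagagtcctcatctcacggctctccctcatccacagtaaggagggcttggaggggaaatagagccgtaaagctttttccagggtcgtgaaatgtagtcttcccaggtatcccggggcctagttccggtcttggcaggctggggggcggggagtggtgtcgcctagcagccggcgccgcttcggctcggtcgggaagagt
Cep78, chr19:15984940-15985239, minus strand: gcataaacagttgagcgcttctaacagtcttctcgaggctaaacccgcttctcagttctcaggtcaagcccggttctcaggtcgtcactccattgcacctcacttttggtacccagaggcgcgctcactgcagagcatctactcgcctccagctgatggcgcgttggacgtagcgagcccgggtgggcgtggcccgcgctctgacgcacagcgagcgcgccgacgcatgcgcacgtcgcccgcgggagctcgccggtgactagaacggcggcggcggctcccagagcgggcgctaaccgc
Cep70, chr9:99243091-99243390, plus strand: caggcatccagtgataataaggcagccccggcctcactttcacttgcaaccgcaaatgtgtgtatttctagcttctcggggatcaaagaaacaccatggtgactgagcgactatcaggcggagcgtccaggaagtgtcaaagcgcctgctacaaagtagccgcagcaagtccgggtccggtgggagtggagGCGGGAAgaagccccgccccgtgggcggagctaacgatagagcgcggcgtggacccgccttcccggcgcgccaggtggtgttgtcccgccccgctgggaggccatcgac
Ccp110, chr7:118712293-118712592, plus strand: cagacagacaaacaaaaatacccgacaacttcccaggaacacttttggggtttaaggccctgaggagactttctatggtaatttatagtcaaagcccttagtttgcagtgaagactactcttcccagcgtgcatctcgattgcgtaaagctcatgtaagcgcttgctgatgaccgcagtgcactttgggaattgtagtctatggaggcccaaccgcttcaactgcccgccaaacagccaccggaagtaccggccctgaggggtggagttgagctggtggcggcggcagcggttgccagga
Sass6, chr3:116594708-116595007, plus strand: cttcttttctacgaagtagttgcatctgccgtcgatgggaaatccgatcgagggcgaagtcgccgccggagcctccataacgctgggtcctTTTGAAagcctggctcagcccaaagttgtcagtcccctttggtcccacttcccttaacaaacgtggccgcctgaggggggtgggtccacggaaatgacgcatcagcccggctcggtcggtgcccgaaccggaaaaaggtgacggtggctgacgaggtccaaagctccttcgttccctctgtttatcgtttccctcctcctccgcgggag

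In these stretches Cep290 holds 1 CCAAT match, Cep70 holds 1 E2F match and Sass6 holds 1 CHR match, while Cep78 and Ccp110 hold none of the letters searched. The promoter table matched 28 of the 36 genes, with 34 promoters, since 3 of them have several starts. E2F letters lie in 9 of these 34 promoters (26.5%) against 9.6% of all 32851 promoters of the same length, and CHR letters in 9 (26.5%) against 19.2%. The CCAAT box lies in 19 of 34 (55.9%) against 37.4%. Counted by gene, with any start allowed, E2F letters lie in 8 of the 28 members against 10.9% of all 27025 genes. By the same count CHR letters lie in 7 against 21.7%, and the CCAAT box in 15 against 41.1%. Genes with an E2F match are Cep152, Cep57, Cep63, Cep70, Nin, Pcnt, Stil and Tubgcp3, a set that includes both the member with the widest difference (Stil) and the member with the lowest one (Nin). A match is a description of these letters and not of a bound site.

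Levels are log2 intensities relative to the 75th percentile of each array, so that 0 is a bright probe and negative values are dimmer; they are not comparable between genes. The share of probes well above background ran from 50.2% to 52.2% over the wild-type arrays and from 51.2% to 54.7% over the null arrays. The Plk2 probe had levels of 2.17, 2.21 and 2.38 in the wild-type samples, against -6.98, -7.22 and -7.00 in the null samples, where it was not well above background; the fold by which Plk2 was lower was at least 150.3 (limma, adjusted p = 3.65e-06), by a bound set by the dimmest probes that were well above background on the same arrays. Which part of the gene the null allele changes is not given, so this checks the labels only if the change affects the probed sequence. All 13 epithelial markers on the list used to check the cell type, among them Epcam, Krt8, Krt18 and Krt14, were measured, and their summed level was 2195 to 2253 in wild type and 2126 to 2756 in null samples. Fibroblast markers summed to 2035 to 2363 in wild type and 1369 to 1902 in null samples. As levels are not comparable between genes, such sums do not give the share of a cell type. On principal component 2, with 23.5% of the variance, null sample 3 scored 74.0 and the remaining samples -26.5 to 2.96. Null sample 2 lay farthest from wild type on component 1 (50.5%). Slide row 1 held the wild-type arrays and row 2 the null arrays, so the effect of genotype and that of the row cannot be told apart.

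Of the 36 genes, 35 had a probe well above background on at least 3 arrays and were tested; 34 of these probes were well above background on all 6 arrays and that of Cep78 on 5. Cep76, whose product limits repeated centriole duplication, did not exceed the background clearly on any of the 6 arrays and has no value. In null cells 30 of the 35 had a higher mean than in wild type, against 52.4% of all 24609 entries tested, and the median difference was 0.36 on the log2 scale against 0.03 for all entries. No member passed an adjusted p of 0.05 (limma, Benjamini-Hochberg over all entries), a threshold that 0.553% of all entries passed. An adjusted p under 0.1 was reached by 5 members, all higher in null cells (Cep290, Cep78, Cep70, Ccp110 and Sass6), and by 3.45% of all entries in that direction. At an unadjusted p of 0.05, 14 members were higher and 1 was lower in null cells, where 13.1% of all entries were higher and 9.65% lower (22.8% in either direction). The 14 became 9 without wild-type sample 1, 8 without wild-type sample 2 and 9 without null sample 2. The shares of all entries higher there were 8.9%, 7.98% and 9.15%. With spike-in centring 21 members were higher, and so were 24.2% of all entries. The null samples lay entirely above the wild-type samples for 19 members and entirely below for 1, against 19.2% and 12.1% of all entries. In bulk RNA, a change in the share of cells of one kind and a change in RNA per cell cannot be told apart.

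**Figure D1:**
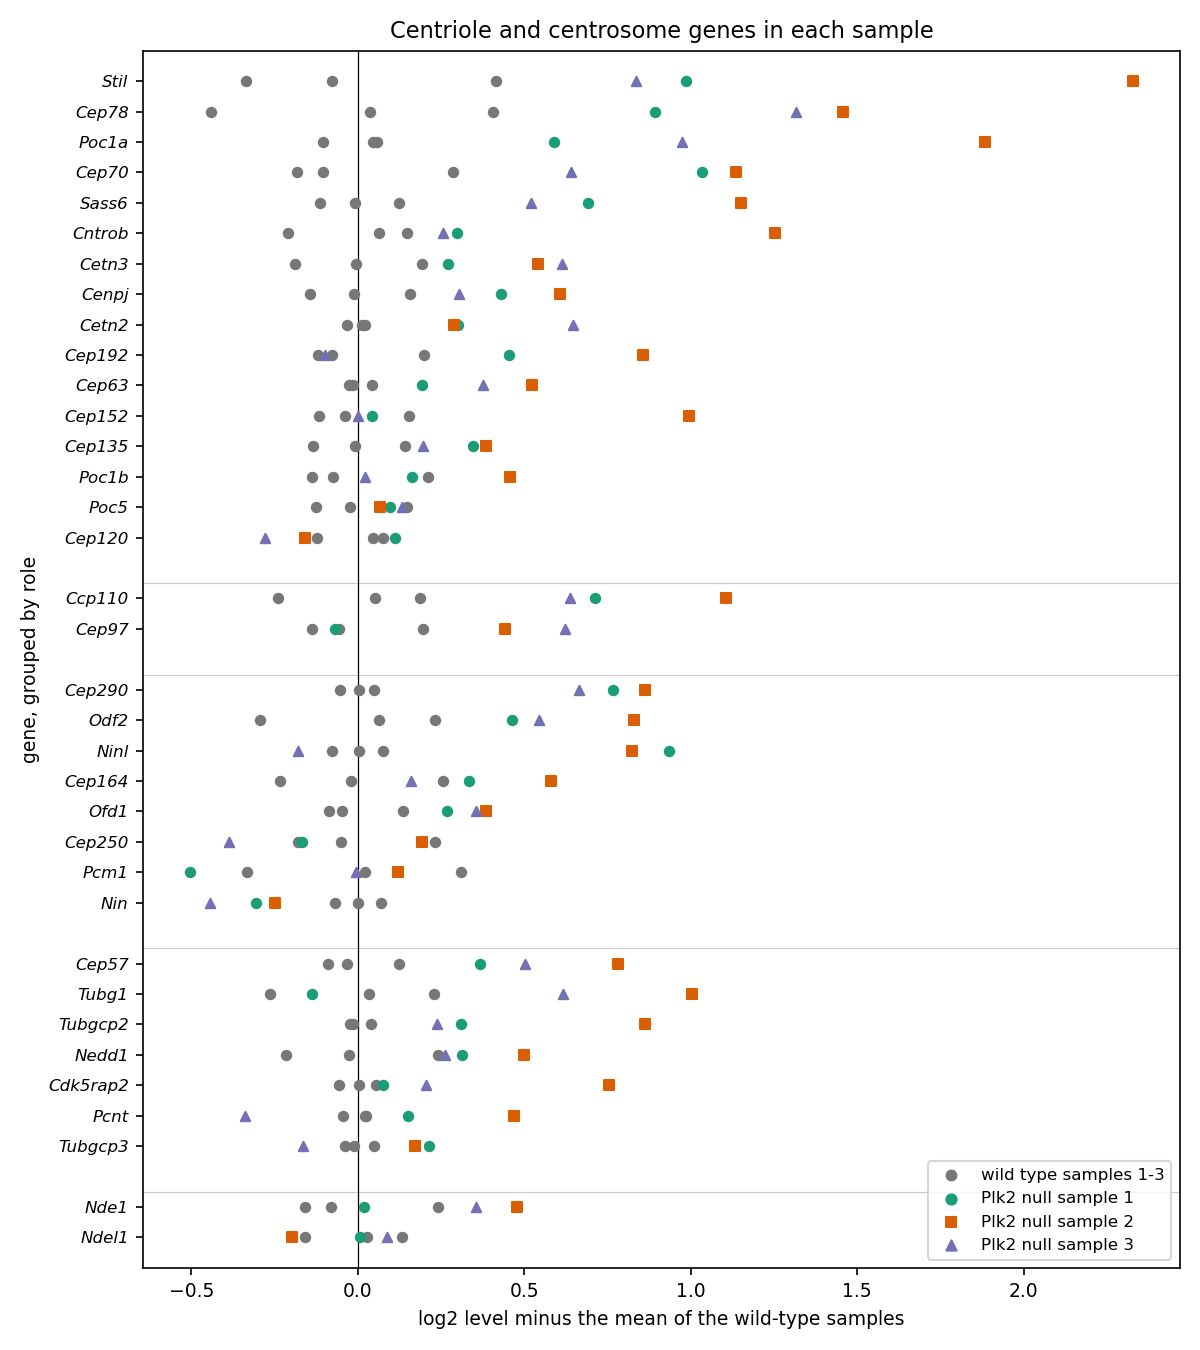
Each row is 1 of the 35 measured genes, grouped by role (centriole assembly, distal cap, appendages and linker, pericentriolar material, dynein adaptors from top to bottom); the x axis gives the log2 level of each sample minus the wild-type mean. Null sample 2 (orange squares) is the highest null sample for 27 of the 35 genes, and the rightmost point is Stil in that sample, at 2.33.

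**Figure D2:**
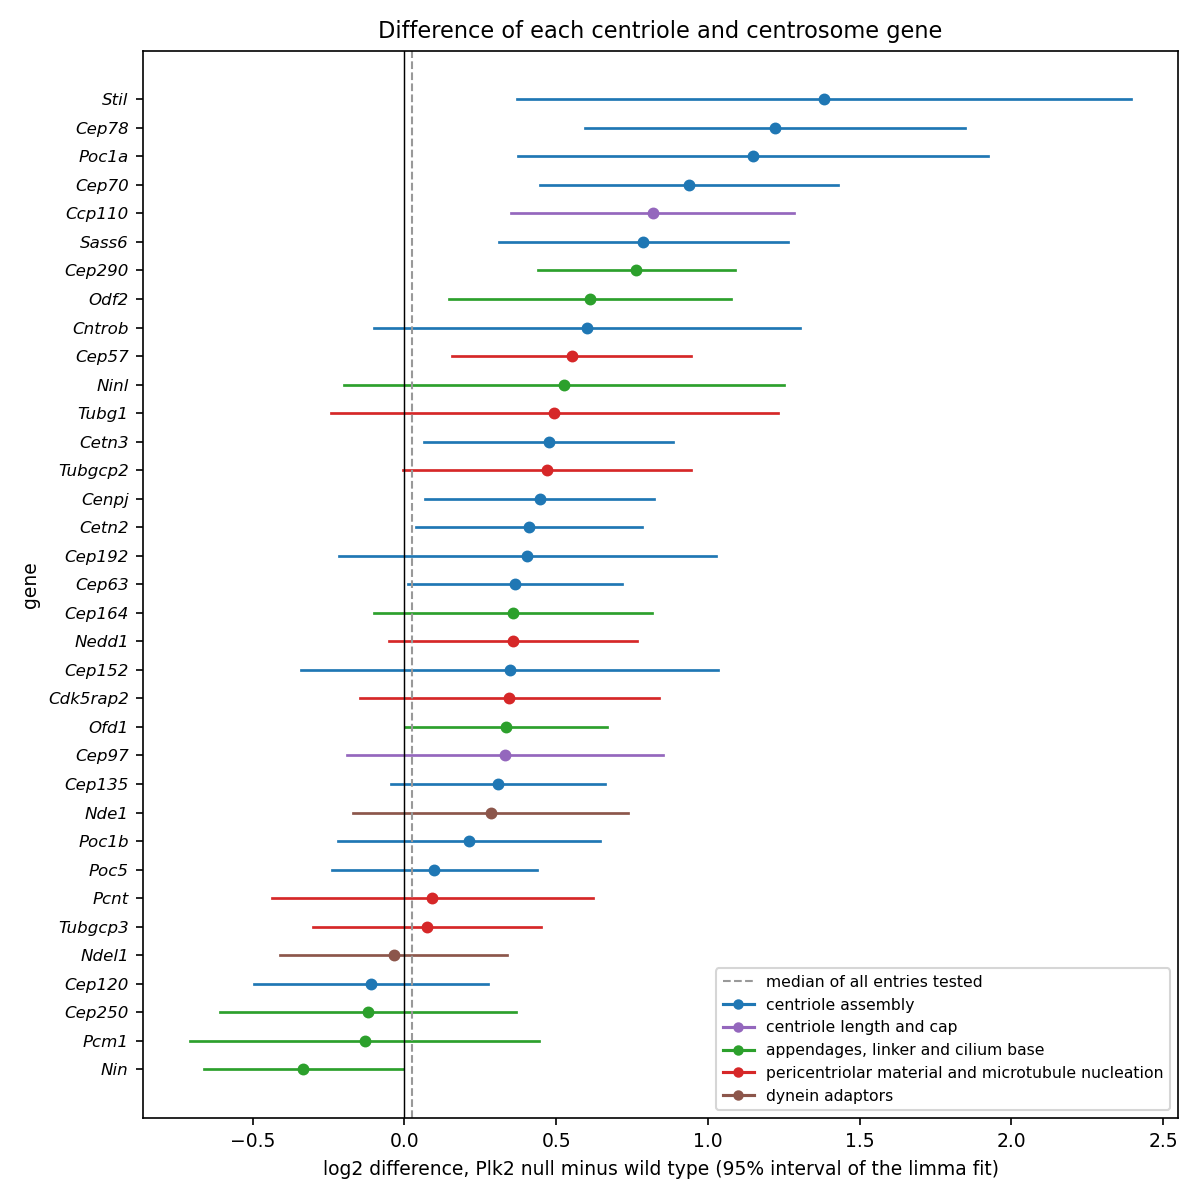
Points give the log2 difference of each gene, null minus wild type, and bars its 95% interval from the limma fit over 3 against 3 samples; colours mark the role. Differences run from -0.33 for Nin to 1.38 for Stil, and the dashed line marks the median of all entries tested, 0.03.

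Genes of centriole assembly were the largest group, with 15 of 16 measured members higher in null cells, a median difference of 0.43 and 9 members with an unadjusted p under 0.05. All of these 9 were higher. Of all entries, 52.4% had a positive difference and 13.1% were higher at that p. Sass6 encodes the protein that gives the cartwheel its symmetry. Its levels were -2.29, -2.19 and -2.05 in wild-type samples 1 to 3 and -1.48, -1.02 and -1.66 in null samples 1 to 3. The groups did not overlap, and the difference was 0.79 (SE 0.20; 1.73-fold; limma adjusted p = 0.0979). With normexp background correction (offset 50) the difference of Sass6 was 0.39, and it was 0.45 with the values of the authors' deposited table. Stil, whose product binds PLK4 and SAS-6, had levels of -2.61, -3.36 and -3.10 in wild type and -2.04, -0.70 and -2.19 in null samples. Null sample 2 stood 1.42 above the mean of the other null samples, the widest such gap among the members, and the difference of 1.38 (SE 0.42) had an adjusted p of 0.133 by limma. The difference of Stil was 0.91 without null sample 2, 0.69 with normexp and 0.77 with the deposited table's values.

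Cenpj, which encodes the elongation factor CPAP, showed a smaller difference with an even spread. Its levels were -0.63, -0.50 and -0.33 in wild type and -0.06, 0.12 and -0.18 in null samples, which did not overlap. The difference was 0.45 (SE 0.16; 1.36-fold; limma adjusted p = 0.168), and its 95% interval ran from 0.07 to 0.82. Both scaffolds that bring PLK4 to the centriole overlapped between the groups. Cep152 had levels of -1.95, -2.14 and -2.22 in wild type and -2.06, -1.11 and -2.10 in null samples, so that only null sample 2 lay above wild type. Cep192 had levels of -1.93, -1.98 and -1.66 in wild type and -1.40, -0.998 and -1.95 in null samples, and here null sample 3 lay within the wild-type range. Their differences were 0.35 (95% interval -0.34 to 1.03) and 0.40 (-0.22 to 1.03); without null sample 2 they were 0.02 and 0.18, and with normexp 0.14 and 0.24. For Cep192 the difference was 0.66 without null sample 3. Cep63, which binds CEP152, differed by 0.36 (SE 0.15) and Cep135, a cartwheel protein gene, by 0.31 (SE 0.15), both without overlap of the groups. A further, dimmer probe of Cep63 gave 0.13, with overlapping groups.

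The widest differences of this group after Stil were in Cep78, Poc1a and Cep70. Poc1a encodes a WD40 protein of the centriole wall, and its levels were 1.001, 0.84 and 0.99 in wild type and 1.53, 2.83 and 1.92 in null samples. The difference was 1.15 (SE 0.32; 2.22-fold; limma adjusted p = 0.117), and a further probe of the gene gave 1.20. Without null sample 2 the difference of Poc1a was 0.78. Its paralog Poc1b differed by 0.21 (SE 0.18), with overlapping groups. Cep70, whose product binds gamma-tubulin, had levels of -1.76, -1.68 and -1.29 in wild type and -0.55, -0.44 and -0.94 in null samples. It differed by 0.94 (SE 0.21; 1.91-fold; limma adjusted p = 0.0826), and all null samples were above all wild-type samples; with normexp the difference of Cep70 was 0.58. Cep78, a gene of centriole and cilium biology, was dim, with levels of -4.38, -4.85 and -4.01 in wild type, where 2 of 3 arrays were well above background, and -3.52, -2.96 and -3.10 in null samples. Its difference was 1.22 (SE 0.26; 2.33-fold; limma adjusted p = 0.0806), but 0.26 with normexp and 0.34 with the deposited table's values, so the size of the Cep78 difference depends on how background is handled.

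Among the remaining members of this group, the calcium-binding centrins differed by 0.41 for Cetn2 (SE 0.16) and 0.48 for Cetn3 (SE 0.17), and in both genes null sample 3 was the highest sample. Cntrob, which encodes the daughter-centriole protein centrobin, differed by 0.60 (SE 0.29; 0.28 to 0.89 over 17 alternatives), and null sample 2 stood 0.98 above the mean of the other null samples. Poc5, a centrin-binding component, differed by 0.10 (95% interval -0.24 to 0.44). Cep120, a gene of centriole elongation, was the single member of the group with a negative difference, at -0.11 (-0.50 to 0.28), and this sign turned in 1 of 17 alternative analyses.

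Ccp110 and Cep97 encode partners that cap the growing end of the centriole and keep a cilium from forming. Ccp110 had levels of -0.10, 0.18 and 0.32 in wild type and 0.85, 1.24 and 0.77 in null samples. The groups were separate, with a difference of 0.82 (SE 0.19; 1.76-fold; limma adjusted p = 0.0922). Cep97 had levels of -2.28, -2.54 and -2.62 in wild type and -2.55, -2.04 and -1.86 in null samples. Null sample 1 lay within the wild-type range, and the difference was 0.33 (95% interval -0.19 to 0.85). For Cep97 it was 0.12 with normexp, 0.18 with the deposited table's values, 0.53 without null sample 1 and 0.19 without null sample 3. The difference between the partners was not tested.

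**Figure D3:**
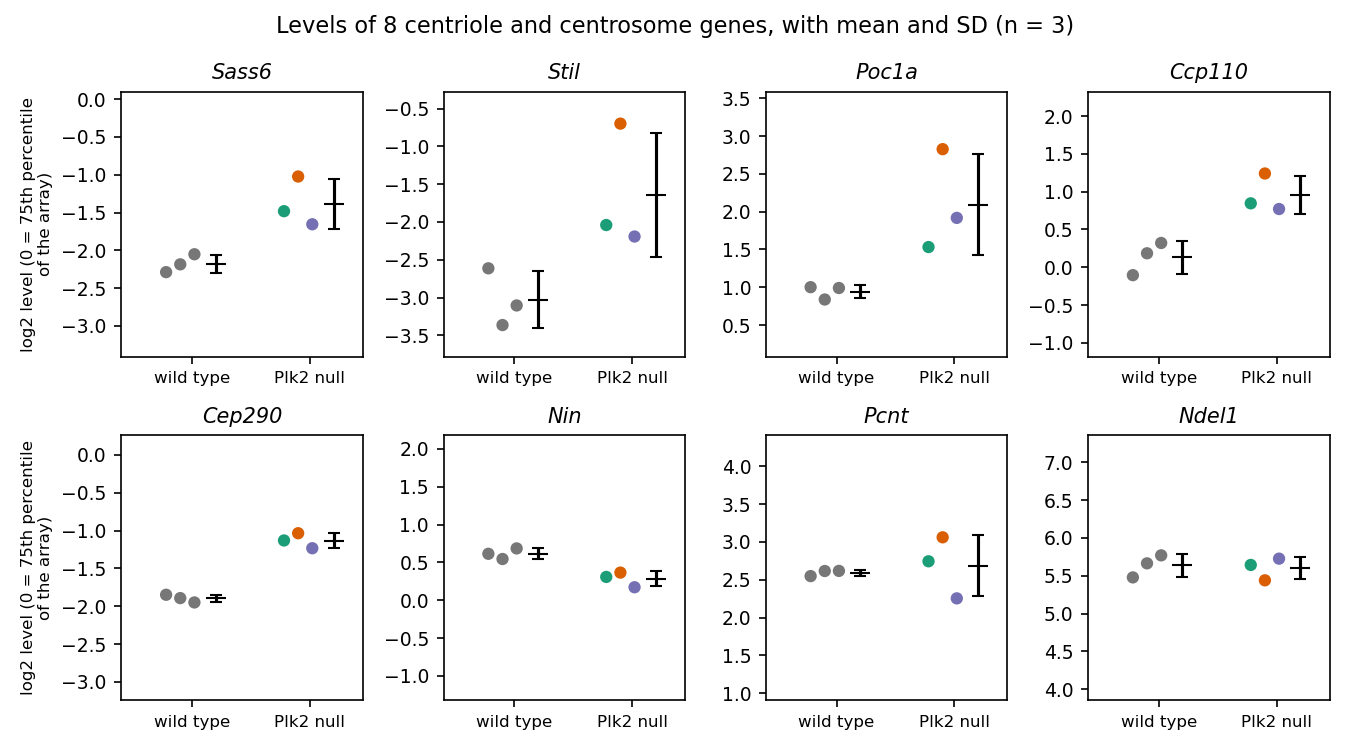
Each panel shows 1 gene; the y axis is the log2 level, with 0 at the 75th percentile of the array and the same span in all panels, points are samples (null samples 1, 2 and 3 in green, orange and purple) and the bar is mean and SD (n = 3). Among the genes shown, Cep290 has tight groups (SD 0.05 and 0.10), Stil and Poc1a spread widely among the null samples (SD 0.82 and 0.66), and Ndel1 overlaps between groups.

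Members of the appendages, the linker between centrioles and the base of the cilium were mixed: 5 of 8 were higher in null cells, with 3 higher and 1 lower at an unadjusted p of 0.05 and a median difference of 0.35. Of all entries, 52.4% had a positive difference, and 13.1% were higher and 9.65% lower at that p. Cep290 encodes a protein of the transition zone at the base of the cilium. Its levels were -1.85, -1.89 and -1.95 in wild type and -1.13, -1.03 and -1.23 in null samples; all null samples lay above all wild-type samples. The difference was 0.76 (SE 0.14; 1.70-fold), with the smallest adjusted p of the members (limma, 0.0597). Over 17 alternatives the adjusted p of Cep290 ran from 0.0264 to 0.198 and was under 0.05 in 4; with array weights the difference was 0.79, without null sample 3 it was 0.81 and without null sample 2 it was 0.72. It was smaller, at 0.41, with normexp and at 0.46 with the deposited table's values.

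Odf2, which encodes the appendage protein cenexin, had levels of 0.56, 0.03 and 0.39 in wild type and 0.79, 1.16 and 0.87 in null samples. These did not overlap, and the difference was 0.61 (SE 0.19; limma adjusted p = 0.141); a probe to another transcript of Odf2 gave 0.24. Ofd1, a gene of the distal centriole, had levels of 0.80, 0.76 and 0.98 in wild type and 1.12, 1.23 and 1.20 in null samples, a difference of 0.34 (SE 0.14). Cep164, which encodes a distal appendage protein needed to dock the ciliary membrane, had levels of 2.51, 2.72 and 2.99 in wild type and 3.08, 3.32 and 2.90 in null samples. Null sample 3 lay within the wild-type range, and the 3 probes of Cep164 gave differences of 0.36 to 0.39.

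Ninein and its relative ninein-like protein, which anchor microtubules, had differences of opposite sign. Nin had levels of 0.61, 0.55 and 0.69 in wild type and 0.31, 0.37 and 0.17 in null samples, and it was the one member with all null samples below all wild-type samples. The difference was -0.33 (SE 0.14; limma adjusted p = 0.214), the 3 Nin probes gave -0.47 to -0.22, and the sign was negative in all 17 alternatives, although the unadjusted p of Nin was under 0.05 in 6 of them and the difference was -0.05 with spike-in centring. Ninl differed by 0.53 (SE 0.30), with levels of -1.42 and -1.53 in null samples 1 and 2 but -2.53 in null sample 3, below the wild-type values of -2.28, -2.35 and -2.43. Its other probe gave 1.23, with null samples 1 to 3 at -2.07, -2.63 and -3.44 and wild type from -4.10 to -3.83, so the probes disagree on where null sample 3 lies. Without null sample 3 the difference of Ninl was 0.88 (limma adjusted p = 0.0410; 0.0410 to 0.578 over 17 alternatives).

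Pcm1, the scaffold of the satellites around the centrosome, had levels of 0.67, 1.31 and 1.03 in wild type and 0.50, 1.12 and 0.997 in null samples. The groups overlapped, the difference was -0.13 (95% interval -0.70 to 0.44), and a further probe gave 0.03. Cep250, which encodes the linker protein C-NAP1, differed by -0.12 (-0.61 to 0.37), a sign that turned in 2 of 17 alternatives.

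In the pericentriolar material and the gamma-tubulin machinery all 7 members had positive differences (median 0.36), against 52.4% of all entries. At an unadjusted p of 0.05 only 1 was higher (14.3%), near the 13.1% of all entries. That member was Cep57, whose product binds microtubules and pericentrin, with levels of -0.97, -0.76 and -0.91 in wild type and -0.51, -0.10 and -0.38 in null samples. The groups did not overlap, and the difference was 0.55 (SE 0.17; limma adjusted p = 0.128). Pcnt, which encodes the main scaffold pericentrin, had levels of 2.55, 2.62 and 2.62 in wild type and 2.74, 3.06 and 2.25 in null samples. The null samples lay on both sides of a narrow wild-type group, the difference was 0.09 (95% interval -0.44 to 0.62), and it was -0.09 without null sample 2.

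Tubg1, the gamma-tubulin gene, had levels of 1.58, 1.08 and 1.38 in wild type and 1.21, 2.35 and 1.96 in null samples, with null sample 1 inside the wild-type range (difference 0.49, SE 0.31). The difference of Tubg1 was 0.24 without null sample 2 and 0.81 without null sample 1. Of the partners of gamma-tubulin in its ring complex, Tubgcp2 had levels of -0.10, -0.16 and -0.15 in wild type and 0.17, 0.72 and 0.10 in null samples, a difference of 0.47 (SE 0.20; limma adjusted p = 0.222), or 0.27 without null sample 2. Tubgcp3 differed by 0.07 (95% interval -0.30 to 0.45). Nedd1, which targets the ring complex to the centrosome, had levels of -0.42, -0.23 and 0.04 in wild type and 0.11, 0.30 and 0.06 in null samples. The groups were separated by a narrow gap, with a difference of 0.36 (SE 0.17). Cdk5rap2, an activator of gamma-tubulin rings, had levels of 2.59, 2.48 and 2.54 in wild type and 2.61, 3.29 and 2.74 in null samples, a difference of 0.35 (SE 0.21); null sample 1 was 0.08 above the wild-type mean and null sample 2 was 0.76 above it, and without that sample the difference was 0.14. A further, dimmer probe of Cdk5rap2 gave 0.17.

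The dynein regulators Nde1 and Ndel1, which work with LIS1 at the centrosome, overlapped between groups. Nde1 had levels of 2.78, 2.38 and 2.46 in wild type and 2.56, 3.02 and 2.89 in null samples (difference 0.28, SE 0.19; 0.19 without null sample 2), and its 3 probes gave 0.28 to 0.44. Ndel1 had levels of 5.48, 5.66 and 5.77 in wild type and 5.64, 5.44 and 5.73 in null samples. Its difference was -0.03 (95% interval -0.41 to 0.34) and changed sign in 4 of 17 alternatives; a further probe of Ndel1 gave -0.19.

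Null sample 2 had the highest level of the null samples for 27 of 35 members, against 31.2% of all entries. Relative to the wild-type mean, the members' median was 0.30, 0.58 and 0.26 in null samples 1, 2 and 3, and between -0.04 and 0.05 from it in wild type. The range of the 3 null values was wider than that of the wild-type values for 25 of 35 members, as it was for 65.8% of all entries. Cell-division transcripts, from a list of 28 mitosis genes, followed the same order in part: their median was 1.36, 3.15 and 1.61 in null samples 1 to 3, and all 24 measured members were highest in null sample 2. In that list the difference was positive for 24 of 24 genes (median 1.97), against 52.4% of all entries. At an unadjusted p of 0.05, 22 of them were higher, where 13.1% of all entries were, and 0 passed an adjusted p of 0.05 (limma). All 24 replication genes were higher on average (median difference 1.15). Of these 1, Mcm3, passed the adjusted threshold, as did 0.219% of all entries in that direction. What part dividing cells have in the centrosome differences was not tested.

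A second list of 58 further centriole and centrosome genes, which holds the regulating kinases, augmin and other centriolar proteins, gave 51 of 54 positive differences, a median of 0.55 and 29 higher against 0 lower at an unadjusted p of 0.05, with 0 past the adjusted threshold (limma). Its null medians were 0.33, 0.69 and 0.51. Of all entries, 52.4% had a positive difference, and 13.1% were higher and 9.65% lower at that p. Plk4, the kinase that starts centriole duplication, had levels of -4.29, -4.83 and -4.85 in wild type, where 1 of 3 arrays was well above background. In null samples the levels of Plk4 were -3.43, -2.26 and -3.48, a difference of 1.60 (SE 0.36, limma adjusted p = 0.0875). Haus1, a subunit of the augmin complex that branches microtubules, differed by 1.47 (SE 0.23), Tube1, which encodes epsilon-tubulin, by 1.42 (SE 0.25), Mzt2, a small partner of the gamma-tubulin ring, by 0.75 (SE 0.16) and Haus4 by 1.02 (SE 0.22). Their adjusted p-values by limma lay between 0.0537 and 0.0813. Looked at after their values were seen, the 8 augmin genes all had positive differences, from 0.36 to 1.47, and 6 had an unadjusted p under 0.05. They belong to this list, where 51 of 54 genes were positive and 29 higher at that p, so positive differences were not particular to augmin. Genes of motile cilia, a structure made by cells with many centrioles, had 3 positive and 6 negative differences among 9 measured members, with a median of -0.35 and 0 past the adjusted threshold (limma; 1 lower at an unadjusted p of 0.05). That share of 11.1% is near the 9.65% of all entries that were lower. Leaving out null sample 2 brought the motile cilium median to -0.05, and spike-in centring brought it to -0.06.

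**Figure D4:**
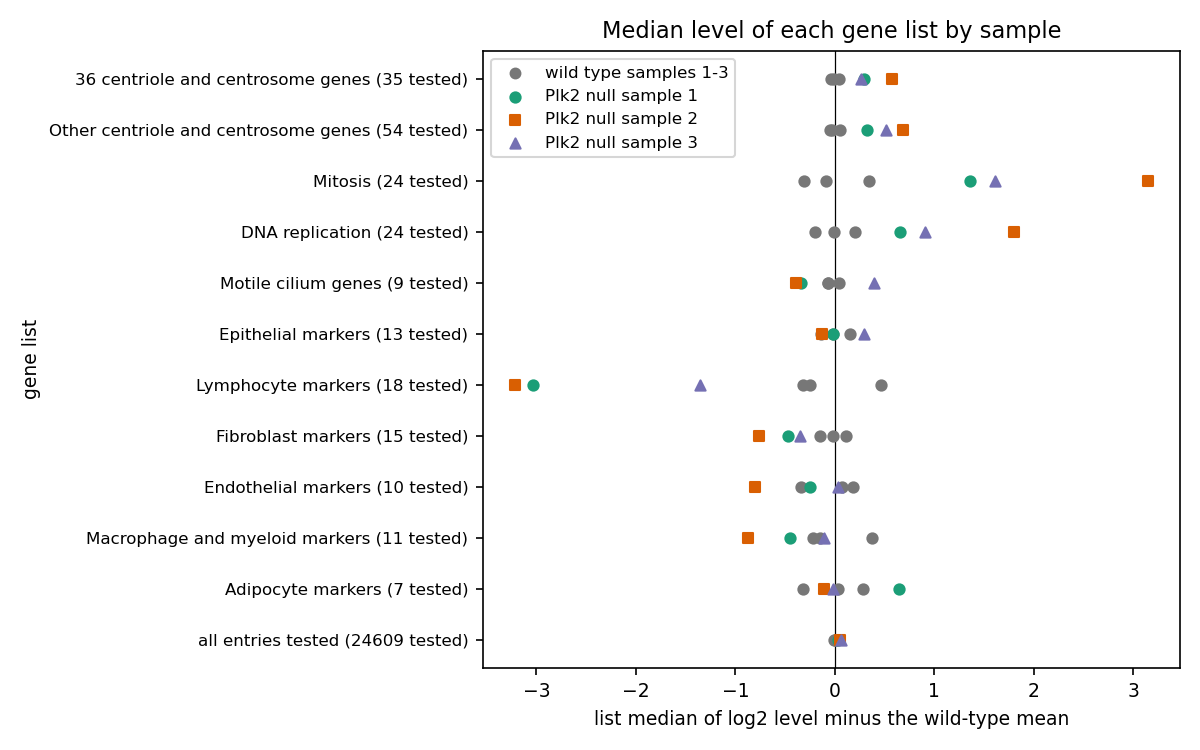
Each row is a gene list with the number of genes tested; the x axis is the list's median of log2 level minus the wild-type mean in each sample. In null samples the 35 measured members span 0.26 to 0.58, the mitosis genes 1.36 to 3.15 and the lymphocyte markers -3.22 to -1.36.

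Markers of some other cell types also differed between the same samples, none past the adjusted threshold (limma). At an unadjusted p of 0.05, 11 of 15 fibroblast, 2 of 10 endothelial and 3 of 11 myeloid markers were lower. There 1 myeloid marker was higher, and 0 of 7 adipocyte markers passed that p in either direction. Lymphocyte markers had 18 of 18 negative differences with a median of -2.55 and 17 lower at an unadjusted p of 0.05, as were 9.65% of all entries. Their summed level was 61.4 to 110.3 in wild type and 8.82 to 26.0 in null samples, and each listed marker was well above background on some array. Fibroblast markers had 15 of 15 negative differences (median -0.59; summed level 2035 to 2363 and 1369 to 1902), endothelial markers 10 of 10 (median -0.38; 95.5 to 150.7 and 71.5 to 116.7) and macrophage and myeloid markers 10 of 11 (median -0.50; 157.1 to 217.3 and 146.2 to 172.3). Of the 8 adipocyte markers 5 of 7 measured ones had positive differences (median 0.23; 319 to 443.9 and 315.4 to 539.3), and Lep was below background on all arrays. Without null sample 2 the endothelial median was -0.19 and the myeloid median -0.33, and with spike-in centring the fibroblast, endothelial and myeloid medians were -0.30, -0.09 and -0.22. Epithelial markers had a median of 0.06 but went both ways: for Elf5, a factor of luminal progenitor and alveolar cells, the difference was 1.70 (SE 0.29), with an adjusted p of 0.0565 by limma. The basal keratin gene Krt14 differed by 0.91 (SE 0.34), without overlap of the groups. Its partner Krt5, added after its values were seen, differed by 0.96 (SE 0.44), with overlapping groups. Trp63, another basal marker on the list, went the other way, at -0.25 (SE 0.16), also with overlapping groups. Of the tight-junction genes, Cldn7 differed by 0.34 (SE 0.14) and Cldn4 by -0.71 (SE 0.24), while Epcam, Krt8 and Krt18 lay between -0.10 and 0.09. The part of these cells in the centrosome differences was not tested.

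Scaling moved the common level. With each array centred on its spike-in controls, the median of all entries was 0.31 in place of 0.03, 34 of 35 members were positive and their median was 0.65, so relative to all entries the members lay about as far up as before. The sign of the member median was positive in all 17 alternatives, from 0.28 without null sample 2 to 0.65. Without null sample 3, 3 members passed the adjusted threshold (Cep290, Cep70 and Ninl), and with array weights, which gave null sample 3 a weight of 0.33, 3 passed (Cep290, Cep70 and Sass6). These alternatives raised the calls among all entries too, from 136 to 738 and to 1250.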

How the data were processed

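RNA of 3 wild-type and 3 Plk2 null samples was hybridised to 1-colour Agilent arrays (design 028005, probes placed on mm9), and the deposited scanner files hold intensity values from Feature Extraction 11.0.1.1, background-subtracted and detrended over the array by the scanner software, per the file headers. The authors' deposited table holds p-values and a signed fold score per spot, negative where null is lower; its header names the kind of test for the p-values but not the variant or any adjustment. From the deposited intensities, control spots and outlier spots were left out (1119 gene spots over 6 arrays), and log2 of the processed signal was centred on the 75th percentile of each array. Spots of a probe were averaged. A probe was kept if well above background on at least 3 of 6 arrays, and the brightest kept probe stood for its gene; 26582 of 55681 probes were named through RefSeq accessions (GRCm38.p6). All 24609 entries were fitted with limma 3.58.1 (lmFit and eBayes in R 4.3.3), with Benjamini-Hochberg adjustment over all of them. The fit was also run on simulated data with known differences, but the steps before it were not tested in this way. The number of arrays limits the precision.

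The members and the gene lists were chosen with earlier results of these data known. All 36 members could be named; values in every sample are given for the 4 members of smallest p in each role group and for 13 key genes, and the others by difference. Of other lists, at most the 4 genes of smallest p are given as examples, except Plk2, Plk4 and some epithelial markers. Alternatives changed the scaling, background correction, filter, choice of probe, model and samples.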

Additional observations from a re-analysis of the deposited data

How the results depend on the processing

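The count of members with a positive difference stayed between 30 and 34 under all 17 alternatives, and the median difference was within 0.28 to 0.46 except with spike-in centring, where it was 0.65 and the median of all entries moved to 0.31. The number of members past an adjusted p of 0.05 (limma) was 0 in the main analysis, 1 with the deposited table's values, 1 when a probe had to be well above background on all arrays of 1 group, 3 with array weights, and 0 to 3 when single samples were left out. The count of members higher at an unadjusted p of 0.05 was 14, beside 13.1% of all entries. It was 8 to 14 when single samples were left out, beside 7.98% to 12.7% of all entries. With no filter on dim probes it was 11 (6.78% of all entries) and with normexp 17 (14.1%). It was 17 with array weights (14.2%), 18 with the deposited table's values (13.8%) and 21 with spike-in centring (24.2%). The count of lower members was 1, and 0 with median centring, spike-in centring, no filter on dim probes, the mean of a gene's probes, the replicate block and every sample left out (0 to 0). Signs turned in 5 genes with small differences: Cep120 in 1 of 17 alternatives, Cep250 in 2, Pcnt in 1, Pcm1 in 3 and Ndel1 in 4. Ndel1 was 0.0011 with median centring, 0.25 with spike-in centring and -0.11 to 0.047 with samples left out. Pcm1 was 0.16 with spike-in centring and -0.30 to 0.056 with samples left out, and Pcnt was -0.095 to 0.31. Apart from samples left out and the changes of scale, the cause of these shifts was not tested.

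The replicate number, which is also the slide column, was used as a block (the replicate block). With it 9 members were higher at an unadjusted p of 0.05 (limma), beside 9.79% of all entries. In that fit 0 members were lower, beside 8.96% of all entries, and 0 passed the adjusted threshold. The labels do not say whether equal numbers pair the samples. Deviations from the group means correlated at -0.12, 0.04 and -0.02 for same-numbered samples, and at -0.17 to 0.21 for differently numbered ones. With 3 samples per group these values cannot decide whether samples are paired. Among all entries the block left 8 calls in place of 136. Dim signal limits Cep76, Cep78 and Plk4, and background correction also matters for members well above background on all arrays. With normexp the differences of Sass6 and Cep290 were 0.39 and 0.41, in place of 0.79 and 0.76. That of Cep164 was 0.45 in place of 0.36.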

Other observations

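The authors' deposited table holds 62976 rows, and 921 of them have a p under 0.01 and a fold past 1.4 in either direction. At that small share, finding 0 of the 36 member probes among them says little about the members. Only the p is passed, in the authors' deposited table, by 3 member probes, those of Cep290 (p = 0.00065, fold 1.37), Cenpj (p = 0.00336, fold 1.37) and Nin (p = 0.00664, fold -1.20). How many of all rows pass that p was not counted.

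Of the 10 members with more than 1 kept probe, the probes had the same sign in 9, Pcm1 being the exception.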
